A study of Mus musculus with 2 samples.

Results

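The 35 genes described here are transcribed when cells copy and divide their genome. They were found by symbol among the 31053 features of 2 droplet single-cell RNA libraries from mouse liver tumours, and all 35 matched. They comprise 12 genes of S phase, when DNA is copied, 22 genes of G2 and mitosis (G2/M), when the copies are separated, and Stmn1, which was set to neither phase. The inhibitor library came from C57BL/6 mice that were given an inhibitor of FABP5, a cytosolic fatty acid carrier, from month 13. The control library came from mice of the same strain, whose own treatment the labels do not name. Mice of both groups were fed the CD-HFD diet for 15 months and were 17 months old. Tumour regions of the liver were cut out and dissociated with collagenase, and an Annexin V kit was used to enrich live cells. Neither how many mice were pooled nor which Annexin V fraction was sequenced is given in the sources used here. The labels call the material liver cells, but most kept cells carried leukocyte markers, 140 inhibitor and 182 control cells were hepatocyte-like, and 42 cells, all from the control library, were tumour-like or bile duct-like epithelium. The values below therefore describe mainly the immune cells of the tumour region.

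Cells enter the cycle when D-type cyclins release E2F factors from the retinoblastoma proteins, and E2F factors then raise the genes of DNA synthesis. The MCM2 to MCM7 helicase opens DNA at origins, PCNA clamps the polymerases to it, and thymidylate synthase, thymidine kinase and ribonucleotide reductase supply the nucleotides. Genes of G2/M are raised later, by B-MYB and FOXM1 with the DREAM subunits at CHR and CCAAT elements. They encode the cyclin-dependent kinase CDK1 with its cyclins, the spindle and kinetochore machinery, and the anaphase-promoting complex that ends mitosis. Most mature immune cells in tissue are at rest, while activated lymphocytes, resident macrophages and dendritic cell precursors can divide there.

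The phases differ in the letters of their promoters, and 6 members whose transcripts are described below are shown for that reason. Sequences are from RefSeq on build GRCm38.p6, on the gene's strand, and end at the last base before the annotated start. In the first 4, of G2/M members, capitals mark the CHR letters TTTGAA or TTCGAA and the CCAAT box, on either strand. In the last 2, of S-phase members, capitals mark the E2F letters TTTGGCGC, TTTCCCGC, TTTCGCGC or TTTGCCGC and the CCAAT box, on either strand. Where such matches overlap or adjoin, they form 1 run of capitals.
Top2a, chr11:99024190-99024299, minus strand: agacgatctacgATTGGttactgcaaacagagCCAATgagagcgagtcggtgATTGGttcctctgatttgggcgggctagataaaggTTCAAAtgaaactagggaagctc
Ube2c, chr2:164769829-164769928, plus strand: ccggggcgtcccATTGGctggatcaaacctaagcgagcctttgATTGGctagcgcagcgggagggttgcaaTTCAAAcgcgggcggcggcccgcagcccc
Cdc20, chr4:118437344-118437413, minus strand: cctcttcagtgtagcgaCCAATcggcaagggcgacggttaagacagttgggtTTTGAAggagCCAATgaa
Kif11, chr19:37376312-37376381, plus strand: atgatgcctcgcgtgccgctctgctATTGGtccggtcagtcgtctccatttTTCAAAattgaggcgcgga
Mcm5, chr8:75109349-75109508, plus strand: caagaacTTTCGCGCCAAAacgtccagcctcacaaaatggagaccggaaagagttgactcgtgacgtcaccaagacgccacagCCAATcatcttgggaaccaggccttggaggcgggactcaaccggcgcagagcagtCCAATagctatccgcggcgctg
Mcm6, chr1:128359706-128359825, minus strand: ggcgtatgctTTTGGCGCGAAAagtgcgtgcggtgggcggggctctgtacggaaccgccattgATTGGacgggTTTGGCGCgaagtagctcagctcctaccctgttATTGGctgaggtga
Of the members, 30 matched a promoter window of 250 bases before to 50 after the start. The CHR letters were present in 15 of 19 G2/M windows (78.9%) and in 3 of 11 S-phase windows (27.3%), against 19.4% of all 27025 gene windows. Every G2/M window with the CHR letters also held a CCAAT box, a combination found in 7.70% of all windows. The E2F letters were present in 4 of 11 S-phase windows (36.4%), those of Mcm3, Mcm5, Mcm6 and Mcm7, and in 1 of 19 G2/M windows (5.26%), that of Cdk1, against 2.32% of all windows. The CCAAT box was present in 9 of 11 S-phase windows (81.8%) and 17 of 19 G2/M windows (89.5%), against 37.9% of all windows. These matches describe letters in a window and are not evidence of binding. Aurkb, Ccna2, Mcm4, Stmn1 and Tpx2 have no window in the table used.

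There was 1 library per group, so no difference was tested and none has a replicate check. The inhibitor library held 10649 barcodes with 68074929 UMIs (unique molecular identifiers, each marking 1 captured transcript), and the control library 9493 barcodes with 53378693 UMIs. After limits and doublet removal 8753 inhibitor cells and 6461 control cells were kept, with median UMI counts of 6279 and 3956, and 29 barcodes occurred in both libraries. The members, other cycle genes and correlated genes were left out of clustering, so that dividing cells stayed with their lineage. Classes were named from marker genes and are written with "-like". The classes were unequally filled: classical monocyte-like cells numbered 2610 in the inhibitor library and 46 in the control library. The 9 classes that held 100 cells or more in both libraries were compared. Levels are CPM, the UMIs of a gene or gene group in every 1000000 UMIs of the class, and a difference is the log2 ratio of CPM, inhibitor over control. The intervals in parentheses are exact 95% counting intervals and do not cover differences between animals or which cells were sampled.

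Over all kept cells the S-phase and the G2/M genes were lower in the inhibitor library. The S-phase members summed to 153.5 CPM (8592 UMIs) in the inhibitor library and 258.9 CPM (9347 UMIs) in the control library, a log2 ratio of -0.75 (-0.80 to -0.71). The G2/M members summed to 527.3 CPM in the inhibitor library and 864.2 CPM in the control library, a log2 ratio of -0.71 (-0.74 to -0.69). Hmgb2, a chromatin protein gene that resting cells also express, held 69.0% of the inhibitor library's G2/M UMIs. Without it the G2/M sum was 163.2 CPM in the inhibitor library and 397.9 CPM in the control library, a log2 ratio of -1.29 (-1.32 to -1.25). Members with at least 20 UMIs over both libraries were counted as measured, and as lower or higher past 1.5-fold. All 35 were measured: 9 of 12 S-phase and 20 of 22 G2/M members were lower and 0 were higher, where 28.9% of all 14533 measured features were lower and 8.77% higher. The median log2 ratio was -0.77 for S-phase members and -1.46 for G2/M members, against -0.16 for all features.

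The S-phase members differed among themselves. Pcna, the polymerase clamp, was nearly level, at 28.5 CPM in the inhibitor library and 30.9 CPM in the control library (log2 ratio -0.12, -0.23 to -0.0042). The 6 helicase genes had log2 ratios between -0.93 (Mcm7) and -0.52 (Mcm4), and Mcm4 and Mcm5 lay within 1.5-fold. Mcm6 was at 20.3 CPM in the inhibitor library and 33.5 CPM in the control library, a log2 ratio of -0.72 (-0.84 to -0.61). Mcm3 was at 16.8 and 26.6 CPM, Mcm7 at 13.7 and 26.2 CPM, Mcm5 at 12.04 and 18.03 CPM, Mcm4 at 11.47 and 16.43 CPM, and Mcm2 at 7.68 and 13.3 CPM in the inhibitor and control libraries. The nucleotide supply genes had log2 ratios of -0.75 for Tyms (thymidylate synthase), -0.88 for Rrm1 and -0.78 for Rrm2 (the ribonucleotide reductase subunits) and -1.30 for Tk1 (thymidine kinase). Hist1h1b, a linker histone gene of S phase, stood apart at 10.1 CPM in the inhibitor library and 33.2 CPM in the control library, a log2 ratio of -1.72 (-1.86 to -1.57).

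Among the G2/M members, 20 of 22 lay between log2 ratios of -1.80 and -1.08. Top2a, the topoisomerase that untangles sister chromatids, was at 17.9 CPM in the inhibitor library and 46.0 CPM in the control library (-1.36, -1.48 to -1.25). Mki67, which coats mitotic chromosomes, was at 12.2 CPM in the inhibitor library and 33.6 CPM in the control library (-1.46). Ube2c, the ubiquitin-conjugating enzyme of the anaphase-promoting complex, was at 17.1 CPM in the inhibitor library and 47.1 CPM in the control library (-1.46). Cdc20, an activator of the same complex, was at 4.32 and 12.8 CPM in those libraries. Birc5 (survivin) and Cdca8 (borealin), partners of aurora kinase B, were at 10.1 and 7.83 CPM in the inhibitor library and at 33.2 and 20.8 CPM in the control library. Cenpf, a kinetochore protein, had the lowest ratio, with 4.93 CPM in the inhibitor library and 17.2 CPM in the control library (-1.80, -2.01 to -1.60). The mitotic kinase Cdk1 was at 7.61 CPM in the inhibitor library and 19.7 CPM in the control library, and its cyclins Ccna2, Ccnb1 and Ccnb2 had log2 ratios of -1.25, -1.49 and -1.66. The spindle kinases and checkpoint genes Aurka, Aurkb, Plk1, Bub1 and Bub1b lay between -1.73 and -1.08. The spindle and kinetochore genes Tpx2, Kif11, Nusap1 and Cenpe lay between -1.75 and -1.36. Both exceptions were Cenpa, the histone variant of centromeres, at 37.1 CPM in the inhibitor library and 48.3 CPM in the control library (-0.38), and Hmgb2, at 364.1 and 466.2 CPM (-0.36). Stmn1, which destabilises microtubules and is high in dividing cells, was at 47.2 CPM in the inhibitor library and 123.2 CPM in the control library (-1.39, -1.46 to -1.32).

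Few cells carried these transcripts, and the members differ in how far they are confined to such cells. Cells with at least 10 G2/M UMIs other than Hmgb2 numbered 89 in the inhibitor library and 151 in the control library, and they held 63.1% and 83.3% of those UMIs. For each member, its UMIs were split by whether their cell held at least 5 UMIs of other members. Such cells held 98.3% of the UMIs of Ccna2, 96.8% of Cenpf, 96.0% of Birc5 and 90.8% of Rrm2 over both libraries. They held only 22.6% of Pcna, 31.4% of Mcm4, 33.1% of Hmgb2 and 33.4% of Cenpa UMIs. Outside such cells Pcna was at 24.9 CPM in the inhibitor library and 24.8 CPM in the control library, Cenpa at 31.4 and 28.1 CPM, and Hmgb2 at 305.3 and 289.4 CPM. In the cells rich in other members, Cenpa was at 139.4 CPM in the inhibitor library and 182.0 CPM in the control library, and Hmgb2 at 1207 and 1506 CPM. Of the members nearest to level between the libraries, such cells held 17.4% of Pcna, 19.9% of Cenpa and 21.6% of Hmgb2 inhibitor UMIs. Of the control UMIs they held 29.98%, 49.5% and 47.0%. These members were thus largely measured in cells with few other cycle transcripts in the inhibitor library. In the control library that was less so for Cenpa and Hmgb2. The cutoff of 5 UMIs was applied without thinning. Hmgb2 was detected in 72.4% of inhibitor cells and 66.1% of control cells.

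**Figure D1:**
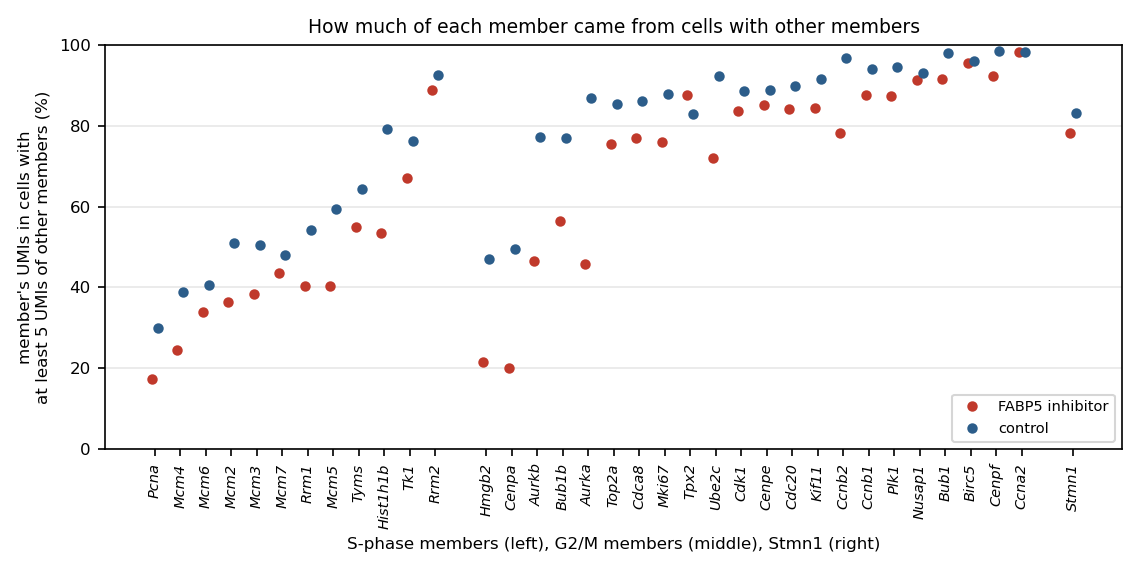
Share of each member's UMIs (percent, vertical axis) found in cells with at least 5 UMIs of other members, for the FABP5 inhibitor library (red) and the control library (blue), members ordered within phase. Pcna sits lowest in both libraries, at 17.4% in the inhibitor library and 29.98% in the control library, while the highest is Ccna2 in the inhibitor library (98.3%) and Cenpf in the control library (98.7%).

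Depth was set equal to count cells. After each cell was thinned to 1000 UMIs, 153 of 8618 inhibitor cells (1.78%, exact Clopper-Pearson interval 1.51 to 2.08) and 163 of 6245 control cells (2.61%, 2.23 to 3.04) kept at least 2 S-phase UMIs. For G2/M members other than Hmgb2 the shares were 1.31% (1.08 to 1.57) of inhibitor cells and 2.74% (2.35 to 3.17) of control cells. Unthinned, 1372 of 8753 inhibitor cells (15.7%) and 1292 of 6461 control cells passed for S phase, and 8.53% of inhibitor cells and 9.66% of control cells for G2/M. Neutrophil-like cells, which do not divide once mature, served as background: 0 of 522 inhibitor cells and 0 of 787 control cells passed for either phase. The limit taken for a count of 0 was the share that 3 cells would make, 0.575% and 0.381%, and is not a Clopper-Pearson bound. Median UMI counts of neutrophil-like cells were 1638.5 in the inhibitor library and 1956 in the control library. Cells passing for both phases numbered 43 in the inhibitor library and 60 in the control library, for S phase alone 110 and 103, and for G2/M alone 70 and 111.

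The difference over all cells moved with the mix of classes. With 15 classes weighted as in the control library, the log2 ratio of the S-phase sum was -0.30, against -0.78 with each library's own mix, and that of the G2/M sum without Hmgb2 was -0.84, against -1.34. Weighted as in the inhibitor library the values were -0.29 for S phase and -0.61 for G2/M without Hmgb2. The weights are the UMIs of each class, and the unnamed cells count as 1 of the 15 classes. Classical monocyte-like cells, with 2610 inhibitor cells, enter with a control level from only 46 cells. Those held 32 S-phase UMIs and 30 G2/M UMIs without Hmgb2. T cell-like cells held 45.2% of the inhibitor library's G2/M UMIs without Hmgb2 and 32.6% of the control library's. Macrophage-like cells held 1.46% of the inhibitor library's and 20.3% of the control library's. The levels by class follow.

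**Figure D2:**
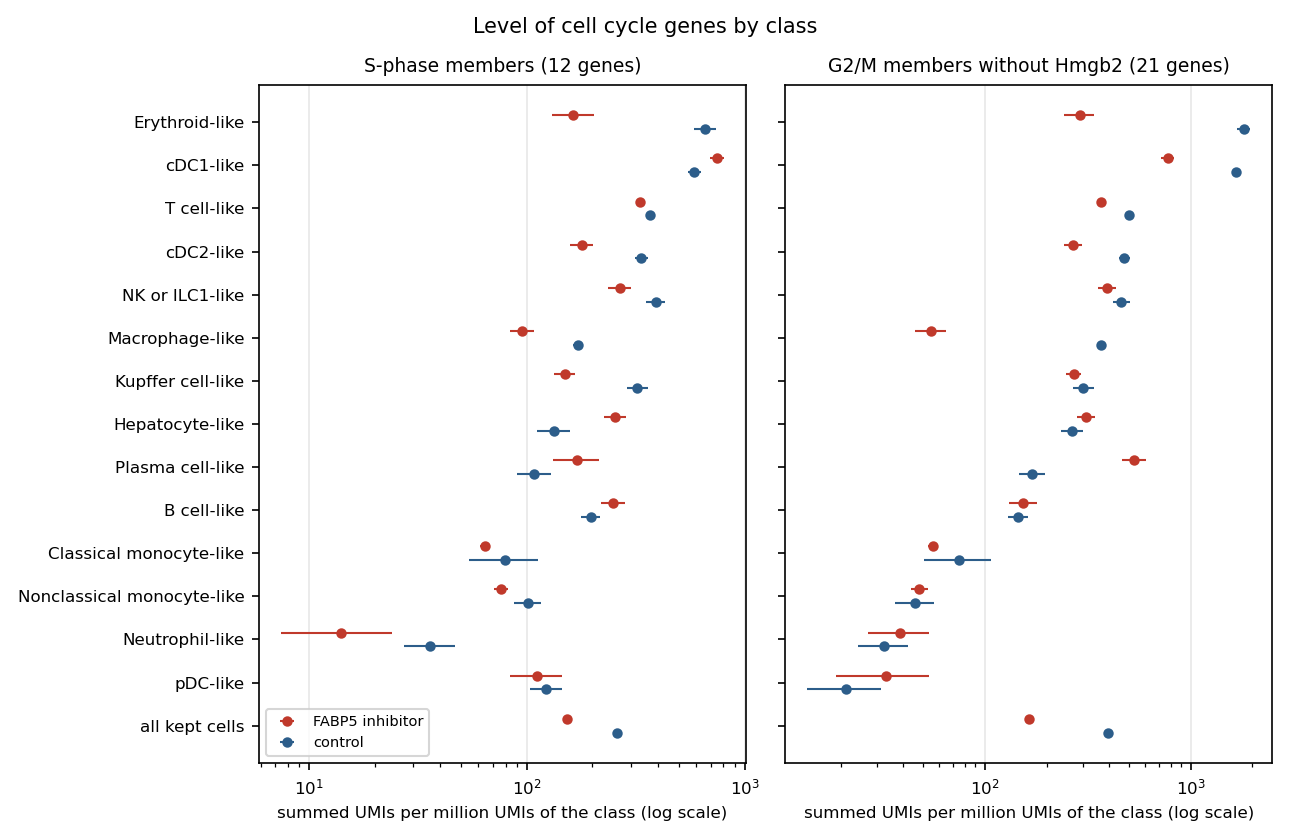
Summed S-phase members (left) and G2/M members without Hmgb2 (right) as CPM of each class, on log axes, for the FABP5 inhibitor library (red) and the control library (blue), with exact Poisson 95% intervals. Classes that held 20 cells or more in both libraries are shown in the order of the control library's G2/M level, and the macrophage-like class has the widest gap between libraries for G2/M among the compared classes, 54.8 against 367.0 CPM.

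Conventional dendritic cell 1-like (cDC1-like) cells, of the lineage that cross-presents antigen to CD8 T cells, had the highest S-phase level in the inhibitor library among classes that held 20 cells or more in both libraries, 745.5 CPM (729 UMIs), with 588.0 CPM (813 UMIs) in the control library. Their G2/M sum without Hmgb2 was 773.1 CPM in the inhibitor library and 1662 CPM in the control library. Only erythroid-like cells exceeded these control levels, and those rested on very few cells: of 46 inhibitor and 48 control erythroid-like cells, 1 inhibitor cell held 65.5% and 1 control cell 28.8% of the G2/M UMIs. In order of the control G2/M level followed T cell-like, cDC2-like, NK-like or ILC1-like, macrophage-like, Kupffer cell-like and hepatocyte-like cells. Monocyte-like, neutrophil-like and plasmacytoid dendritic cell-like cells lay at or below 74.6 CPM for G2/M without Hmgb2 in both libraries. The counting intervals of T cell-like (500.9 CPM), cDC2-like (477.0 CPM) and NK-like or ILC1-like (461.4 CPM) control cells overlap, so that their order is not resolved.

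T cell-like cells, the class with the most dividing cells, showed small differences. They numbered 2666 in the inhibitor library and 2293 in the control library, and 98.2% and 97.7% of them held at least 3 UMIs of T cell markers. The S-phase sum was 332.6 CPM in inhibitor cells and 369.5 CPM in control cells, a log2 ratio of -0.15 (-0.22 to -0.085). The G2/M sum without Hmgb2 was 368.1 CPM in inhibitor cells and 500.9 CPM in control cells, a log2 ratio of -0.44 (-0.50 to -0.38). All 35 members were measured, and 1 of 12 S-phase and 4 of 22 G2/M members were lower and 0 higher, where 10.7% of features were lower and 3.82% higher. The S-phase share of 1 of 12 is near that background. Ube2c was at 33.8 CPM (379 UMIs) in inhibitor cells and 59.2 CPM (553 UMIs) in control cells, a log2 ratio of -0.81 (-1.001 to -0.618). Kif11, the motor that pushes spindle poles apart, was at 8.46 CPM in inhibitor cells and 15.2 CPM in control cells (-0.84, -1.23 to -0.46). These are the members with the ratios farthest below 1 in T cell-like cells. Mki67 was at 29.6 CPM in inhibitor cells and 44.1 CPM in control cells (-0.58), while Top2a was at 54.1 and 64.1 CPM (-0.24) and Mcm6 at 62.5 and 61.3 CPM (0.03). The number of cells with at least 10 G2/M UMIs was 49 in each library. With the number of removed doublets doubled, it was 10 of 1564 inhibitor cells and 19 of 1485 control cells of the class. Over all classes that setting kept 8035 inhibitor and 6088 control cells, and they were clustered and named anew. Cells thus left the T cell-like class by a change of name as well as by removal. The part of doublets in this fall was not tested.

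At equal depth the T cell-like shares overlapped. At least 2 S-phase UMIs were kept by 3.89% (3.19 to 4.71) of inhibitor cells and 3.96% (3.19 to 4.85) of control cells, and at least 2 G2/M UMIs by 2.67% (2.09 to 3.36) and 2.92% (2.26 to 3.71). Unthinned, the shares were 23.0% and 23.0% for S phase and 9.15% and 10.2% for G2/M. With the number of removed doublets doubled, 24 members were lower in T cell-like cells, and past 2-fold 0 were, so the count of 5 depends on those choices. The share of all features lower is given for the main setting only, so these 2 counts have no background to be read against. T cell-like cells made up 63.7% of the inhibitor cells and 46.7% of the control cells that passed for either phase.

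In S-phase level, clusters 4, 5, 6 and 9 of the T cell-like class differed more from each other than the libraries did. Cluster 4, led by genes that include Pdcd1, Lag3 and Tox, which are expressed by chronically stimulated T cells, had S-phase levels of 606.6 CPM in inhibitor cells and 615.2 CPM in control cells, and 10.1% and 11.0% of its cells passed for either phase. Cluster 5, led by genes that include Foxp3, Cd4 and Ikzf2 of regulatory T cells, had 390.2 CPM in inhibitor cells and 397.2 CPM in control cells, and 7.80% and 6.24% of its cells passed. Cluster 9, with Gzmk, Cd8a and Cd8b1 among its leading genes, had 344.2 and 399.0 CPM, and 4.94% and 5.18% of its inhibitor and control cells passed. Cluster 6, with Lef1 and Tcf7, genes of resting T cells, had 201.5 CPM in inhibitor cells and 259.2 CPM in control cells, and 2.07% and 3.29% passed. In both libraries cluster 4 had the highest and cluster 6 the lowest S-phase level of these 4. The G2/M sums without Hmgb2 in clusters 4, 5, 9 and 6 were 1011, 607.5, 313.1 and 88.9 CPM in inhibitor cells. In control cells they were 1185, 718.1, 428.8 and 112.0 CPM. Clusters 7, led by interferon-induced Ifit genes, and 19, led by genes that include Il17a and Trdc, held few inhibitor cells, 47 and 26, against 423 and 235 control cells. Their gaps between libraries in G2/M without Hmgb2 were wider. Cluster 7 had 75.6 CPM (14 UMIs) in inhibitor cells and 290.8 CPM in control cells (log2 ratio -1.94, -2.83 to -1.18). Cluster 19 had 89.5 CPM (9 UMIs) in inhibitor cells and 412.7 CPM in control cells (-2.205, -3.34 to -1.27).

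Macrophage-like cells had the widest gap in G2/M transcripts among the compared classes. They numbered 266 in the inhibitor library and 901 in the control library. The S-phase sum was 95.3 CPM (231 UMIs) in inhibitor cells and 171.5 CPM (1360 UMIs) in control cells, a log2 ratio of -0.85 (-1.06 to -0.65). The G2/M sum without Hmgb2 was 54.8 CPM (133 UMIs) in inhibitor cells and 367.0 CPM (2910 UMIs) in control cells, a log2 ratio of -2.74 (-3.004 to -2.491). All members were measured, and 8 of 12 S-phase and 21 of 22 G2/M members were lower and 0 higher, where 16.6% of features were lower and 10.6% higher. The median over the G2/M members was -3.18, with members at 0 set to their bound, against 0.03 for all features.

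Several G2/M members had between 0 and 7 UMIs in the inhibitor cells. Ube2c had 3 UMIs in inhibitor cells and 321 in control cells, 1.24 against 40.5 CPM (log2 ratio -5.03, -7.32 to -3.47). Birc5 had 2 UMIs in inhibitor cells and 232 in control cells, 0.825 against 29.3 CPM (-5.15, -8.20 to -3.28). Top2a had 4 and 292 UMIs and Mki67 7 and 257 UMIs in inhibitor and control cells. Cdc20, Kif11, Nusap1, Plk1 and Rrm2 had 0 UMIs in inhibitor cells and 90, 63, 104, 62 and 52 UMIs in control cells. Against a floor of 3 UMIs over the class, Nusap1, a spindle-binding protein gene, was at least 10.6-fold lower in inhibitor cells, Cdc20 at least 9.18-fold, Kif11 at least 6.42-fold, Plk1 at least 6.32-fold and Rrm2 at least 5.30-fold. Members also found in resting cells differed less. Pcna was at 30.1 CPM in inhibitor cells and 27.8 CPM in control cells (0.12), Cenpa at 28.9 and 38.3 CPM (-0.41), and Hmgb2 at 192.2 and 304.5 CPM (-0.66). Stmn1 was at 10.3 CPM in inhibitor cells and 94.8 CPM in control cells (-3.20).

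Few cells carry this gap. At least 10 G2/M UMIs were found in 1 inhibitor cell, which held 11, and in 28 control cells, of which the highest held 233. The 28 control cells carried 86.5% of the class's G2/M UMIs. After thinning, 1 of 260 inhibitor cells (0.385%, 0.0097 to 2.12) and 25 of 877 control cells (2.85%, 1.85 to 4.18) kept at least 2 G2/M UMIs. The S-phase shares were 1.15% (0.239 to 3.34) and 1.94% (1.13 to 3.09). The intervals of the libraries overlap for both phases. Unthinned, the G2/M shares were 8.27% in inhibitor cells and 11.9% in control cells. The 28 control cells had a median of 147.4 macrophage marker UMIs per 10000, macrophage markers were the highest of all marker sets in 26 of them, and 2 held a T cell marker UMI. Their median UMI count was 16327, against 8398 in the other control cells of the class. With the number of removed doublets doubled, the class held 114 inhibitor and 702 control cells, of which 1 and 9 had at least 10 G2/M UMIs. The part of doublets in this gap was not tested.

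The class itself was not alike in the libraries, which touches every value given for it. All 6 macrophage markers were detected in both libraries, but their summed level was 4308 CPM in inhibitor cells and 7878 CPM in control cells, and the median per 10000 UMIs was 1.49 in inhibitor cells and 42.6 in control cells. At least 3 marker UMIs were held by 98 inhibitor cells (36.8%) and 693 control cells (76.9%). Among those, 1 inhibitor cell and 27 control cells held at least 10 G2/M UMIs, and the log2 ratio of the G2/M sum with Hmgb2 was -1.89, against -1.44 for the whole class. When the class of each cell was set from its own markers, it held 224 inhibitor and 638 control cells, of which 6 and 31 had at least 10 G2/M UMIs. The thinned G2/M share was then 2.86% in inhibitor cells and 4.74% in control cells, and the log2 ratio of the G2/M sum was -1.09. With cycle genes kept in the clustering, the class held 70 inhibitor and 407 control cells, the G2/M log2 ratio was -0.56 and the S-phase log2 ratio turned to 0.15. In that clustering dividing cells formed clusters of their own. Free RNA, estimated from transcripts of hepatocyte secreted proteins, was 38.6% of the UMIs in inhibitor cells and 7.10% in control cells. With it subtracted, the log2 ratio was -2.42 for G2/M with Hmgb2 and -1.30 for S phase. The same estimate was 37.5% in inhibitor and 13.8% in control Kupffer cell-like cells. It was 92.4% in inhibitor and 28.2% in control neutrophil-like cells, whose own markers summed to 145966 CPM in the inhibitor library. An estimate that high in cells rich in their own markers is doubtful, so the subtracted values are uncertain. The G2/M direction was the same under all 11 alternatives run, with log2 ratios between -2.74 and -0.56. Within cluster 13, led by interferon-induced genes, the G2/M sum without Hmgb2 was 51.3 CPM in 50 inhibitor cells and 106.3 CPM in 103 control cells. In cluster 11, led by Gpnmb, Ms4a7 and C1q genes, it was 55.6 CPM in 216 inhibitor cells and 407.8 CPM in 798 control cells.

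**Figure D3:**
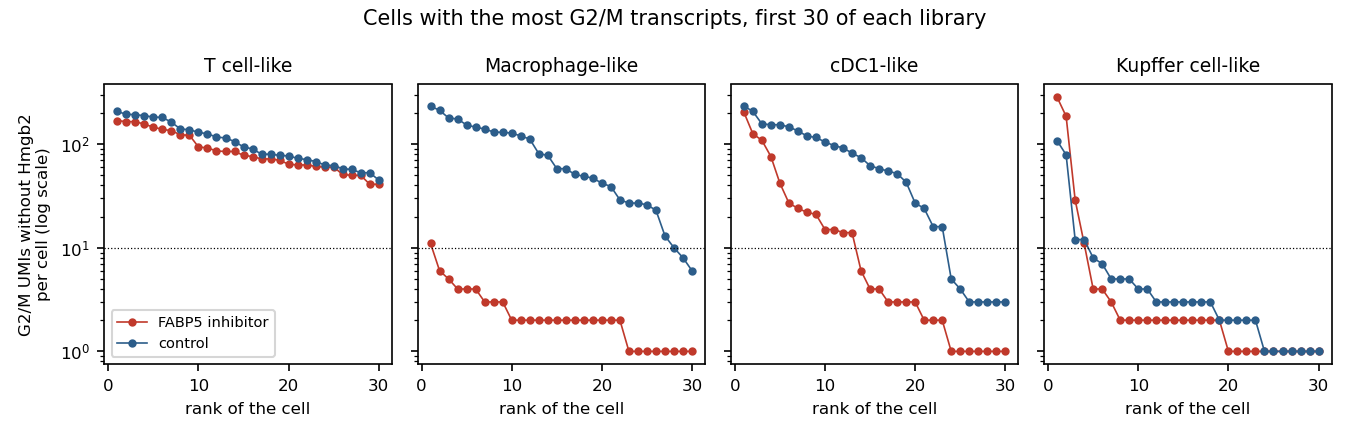
G2/M UMIs without Hmgb2 per cell (log axis) against rank, for the 30 cells with the most such UMIs in each of 4 classes, FABP5 inhibitor in red and control in blue, with a dotted line at 10 UMIs and cells at 0 left out. All 30 T cell-like cells drawn for each library lie above the line, and in macrophage-like cells 1 inhibitor cell lies at or above it, against 28 control cells.

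In cDC1-like cells the phases moved in opposite directions. The class held 72 inhibitor and 101 control cells, of which 87.5% and 89.1% carried at least 3 UMIs of its markers. The inhibitor cells were fewer than the 100 set for comparison, so the values are a description. No ratio of this class is given under the alternatives run for the compared classes. With cycle genes kept in the clustering, a cluster of 8 inhibitor and 52 control cells, with Birc5 and Top2a among its leading genes, was also named cDC1. Of the cDC1 markers, 0 were among its top 10 genes. In that setting control cells with at least 10 G2/M UMIs were 6 macrophage-like, against 28 in the main setting. In cDC2-like control cells they were 8, against 18. Which classes the cells of this cluster came from was not tested. All 35 members were measured. Of the S-phase members, 6 of 12 were higher and 1 lower, where 10.5% of features were higher and 10.6% lower. Of the G2/M members, 20 of 22 were lower and 0 higher. Mcm3 was at 96.1 CPM in inhibitor cells and 42.0 CPM in control cells (log2 ratio 1.196, 0.709 to 1.694), Mcm7 at 89.99 and 40.5 CPM (1.15), Pcna at 68.5 and 32.6 CPM (1.07) and Mcm6 at 93.1 and 53.5 CPM (0.80). Hist1h1b was the S-phase exception, at 50.1 CPM in inhibitor cells and 166.4 CPM in control cells (-1.73, -2.21 to -1.28). Ccnb2, a mitotic cyclin, was at 20.4 CPM in inhibitor cells and 79.6 CPM in control cells (-1.96, -2.73 to -1.26). Ube2c was at 73.6 CPM in inhibitor cells and 224.2 CPM in control cells (-1.61), and Birc5 at 65.4 and 164.9 CPM (-1.33). Among the other cycle genes, 13 of 29 measured S-phase genes were higher and 0 lower, and 18 of 27 measured G2/M genes were lower and 0 higher.

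By cells the cDC1-like pattern was less marked. After thinning, S-phase UMIs passed in 10 of 72 inhibitor cells (13.9%, 6.87 to 24.1) and 10 of 98 control cells (10.2%, 5.003 to 17.97), and G2/M UMIs in 8 inhibitor cells (11.1%, 4.92 to 20.7) and 22 control cells (22.4%, 14.6 to 32.0). Cells that passed for G2/M alone numbered 3 in the inhibitor library and 14 in the control library, for S phase alone 5 and 2, and for both 5 and 8. The intervals of both shares overlap between the libraries. Cells with at least 10 G2/M UMIs were 13 of 72 in the inhibitor library and 23 of 101 in the control library, and the highest cell held 27.0% of the class's G2/M UMIs in the inhibitor library and 10.2% in the control library. Of these cells, 1 inhibitor cell and 4 control cells held a T cell marker UMI.

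cDC2-like cells, the conventional dendritic cells that mainly prime CD4 T cells, were lower for both phases in the inhibitor library. In 149 inhibitor and 242 control cells the S-phase sum was 178.9 CPM and 336.3 CPM (log2 ratio -0.91, -1.12 to -0.71), and the G2/M sum without Hmgb2 was 267.7 CPM and 477.0 CPM (-0.83, -1.003 to -0.666). Of the members, 8 of 12 measured S-phase and 16 of 20 measured G2/M members were lower and 0 higher, where 13.6% of features were lower and 9.47% higher. Hist1h1b was at 11.8 CPM in inhibitor cells and 49.5 CPM in control cells (-2.07, -2.90 to -1.33), and Stmn1 at 83.2 and 190.6 CPM (-1.20, -1.50 to -0.90). Top2a was at 24.97 CPM in inhibitor cells and 63.68 CPM in control cells (-1.35), whereas Cenpa was at 57.6 and 43.7 CPM (0.40, -0.036 to 0.83). At least 10 G2/M UMIs were found in 4 inhibitor cells and 18 control cells, and 2 of the control cells held a T cell marker UMI. The thinned shares overlapped, at 2.01% (0.417 to 5.77) of inhibitor cells and 3.39% (1.48 to 6.57) of control cells for S phase and 4.03% (1.49 to 8.56) and 5.93% (3.28 to 9.75) for G2/M.

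Kupffer cell-like cells, the resident macrophages of liver sinusoids, were lower for S phase in the inhibitor library, while the G2/M ratio changed with the genes and cells counted. In 165 inhibitor and 109 control cells the S-phase sum was 149.9 CPM and 321.4 CPM (log2 ratio -1.10, -1.33 to -0.87), and 10 of 11 measured S-phase members were lower and 0 higher, where 18.1% of features were lower and 13.2% higher. Mcm7 was at 7.45 CPM in inhibitor cells and 27.2 CPM in control cells (-1.87, -2.86 to -0.93). Rrm2 was at 4.19 CPM in inhibitor cells and 21.2 CPM in control cells, from 9 UMIs in 2 cells and 21 UMIs in 5 cells. Pcna was at 44.7 CPM in inhibitor cells and 47.4 CPM in control cells (-0.08). The S-phase sum of the control library also rests on few cells. Its 7 cells with at least 10 S-phase UMIs held 64.6% of the S-phase UMIs, against 27.6% in 4 such inhibitor cells. How far the count of lower S-phase members depends on those cells was not tested. The G2/M sum without Hmgb2 was 270.9 CPM in inhibitor cells and 301.3 CPM in control cells (-0.15, -0.36 to 0.053), and 6 of 17 measured members were lower and 3 higher. With Hmgb2 the log2 ratio was -0.33 (-0.49 to -0.16), and over 10 alternatives it ran from -1.29, with the number of removed doublets doubled, to 0.21, with cycle genes kept in the clustering. Ccnb1, cyclin B1, was the highest of these at 12.6 CPM (27 UMIs) in inhibitor cells and 1.01 CPM (1 UMI) in control cells, a log2 ratio of 3.64 (1.04 to 8.996). These sums rest on few cells: 1 inhibitor cell held 48.8% of the G2/M UMIs, and 1 control cell 36.1%. At least 10 G2/M UMIs were found in 4 inhibitor and 4 control cells, with medians of 76.6 and 51.9 Kupffer cell marker UMIs per 10000. Those markers were the highest of all marker sets in 0 of these inhibitor and 1 of these control cells. With the class set from each cell's own markers, 24 inhibitor and 14 control cells remained, of which 0 in either library had 10 G2/M UMIs. That these dividing cells are Kupffer cells is thus not settled. The thinned shares were 2.63% (0.722 to 6.601) of inhibitor cells and 4.95% (1.63 to 11.2) of control cells for each phase.

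NK-like or ILC1-like cells, the innate cytotoxic and liver-resident lymphoid cells, had an S-phase sum of 267.4 CPM in 239 inhibitor cells and 391.3 CPM in 215 control cells (log2 ratio -0.55, -0.78 to -0.32). The log2 ratio of the G2/M sum was -0.28 (-0.41 to -0.15), and -0.24 (-0.44 to -0.038) without Hmgb2. Without the limit on mitochondrial UMIs both directions turned, to 0.095 for S phase and 0.54 for G2/M, so no direction is read from this class. Of the members, 3 of 12 measured S-phase members were lower and 0 higher, and 3 of 16 measured G2/M members were lower and 1 higher, where 10.3% of features were lower and 7.73% higher. Hist1h1b was at 6.88 CPM in inhibitor cells and 45.7 CPM in control cells, from 7 UMIs in 2 cells and 43 UMIs in 5 cells (-2.73, -4.13 to -1.57). Mki67 was at 24.6 CPM in inhibitor cells and 53.2 CPM in control cells (-1.11, -1.87 to -0.39), and Top2a at 59.0 and 59.5 CPM (-0.01). A control cell alone held 27.4% of the S-phase UMIs. In cluster 18, led by Klra genes of circulating NK cells, 1 control cell held 63.1% of the S-phase UMIs. G2/M UMIs passed after thinning in 2.09% (0.683 to 4.81) of inhibitor cells and 4.72% (2.29 to 8.50) of control cells. At least 10 G2/M UMIs were found in 5 inhibitor cells and 6 control cells, of which 3 and 5 held a T cell marker UMI. The part of T cells or doublets in these values was not tested.

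**Figure D4:**
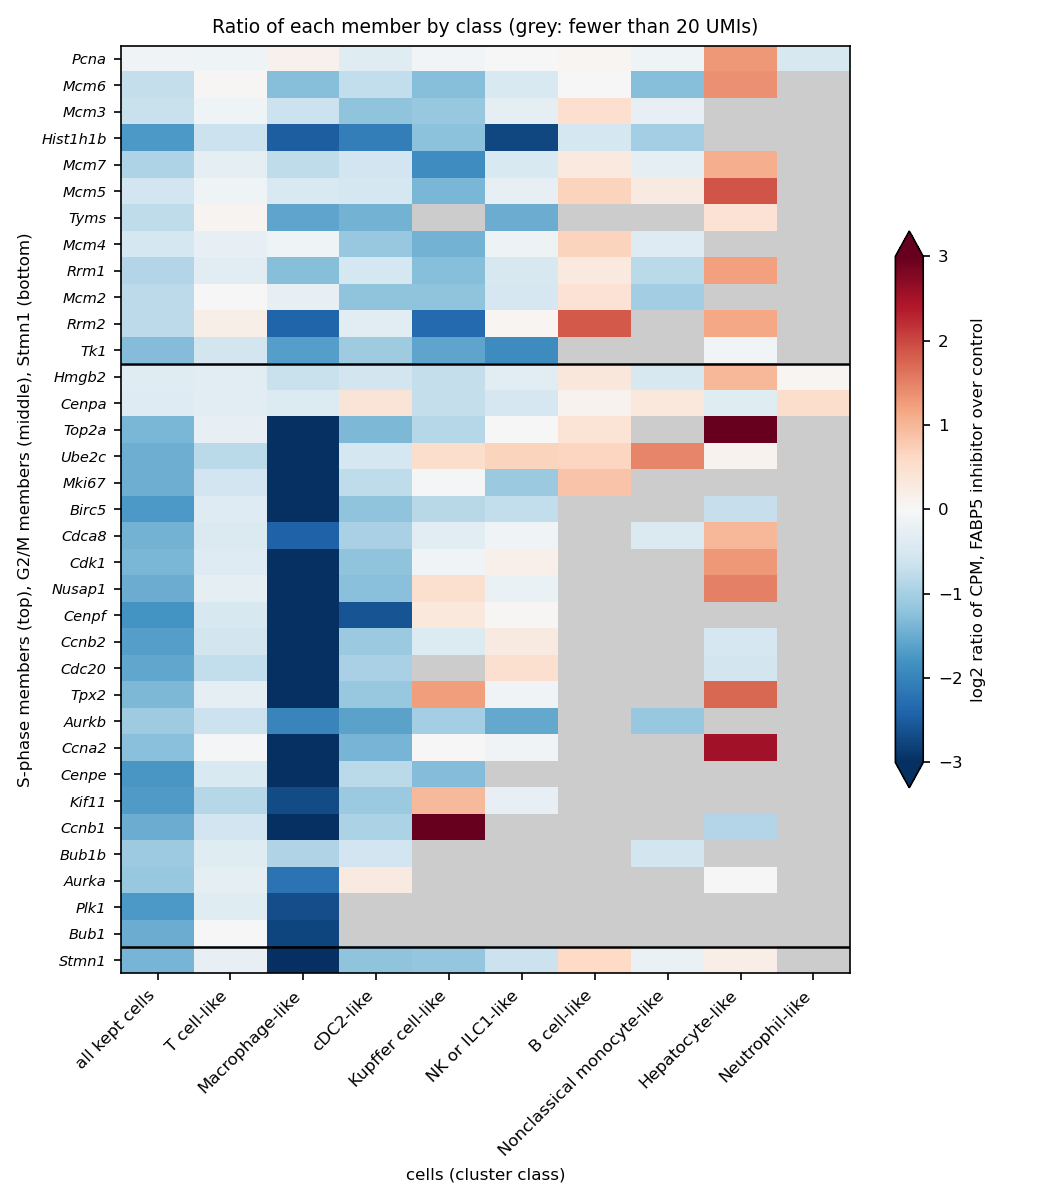
Log2 ratio of CPM, FABP5 inhibitor over control, for each member (rows, S phase on top, then G2/M, then Stmn1) in all kept cells and the compared classes (columns), blue where lower and red where higher in the inhibitor library, grey under 20 UMIs. Members at 0 UMIs in inhibitor cells are drawn at a floor of 3 UMIs. The macrophage-like column is darkest for G2/M, the T cell-like column is pale, and the hepatocyte-like and B cell-like columns run red.

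In B cell-like cells the S-phase sum and Hmgb2 were higher in the inhibitor library. The S-phase sum was 249.4 CPM in 346 inhibitor cells and 196.6 CPM in 601 control cells (log2 ratio 0.34, 0.12 to 0.57), and the G2/M sum with Hmgb2 was 452.5 CPM in inhibitor cells and 382.5 CPM in control cells (0.24, 0.077 to 0.41). Without Hmgb2 the G2/M sum was 153.0 CPM in inhibitor cells and 144.6 CPM in control cells (0.08, -0.20 to 0.36), an interval that spans 0. Of the members, 3 of 10 measured S-phase and 2 of 5 measured G2/M members were higher and 0 lower, where 6.08% of features were higher and 9.79% lower. Rrm2 was at 13.2 CPM in inhibitor cells and 3.71 CPM in control cells, from 14 UMIs in 2 cells and 8 UMIs in 7 cells (1.83, 0.48 to 3.29). Hmgb2 was at 299.4 CPM in inhibitor cells and 237.8 CPM in control cells (0.33, 0.13 to 0.54). However, 1 inhibitor cell held 30.7% of the S-phase UMIs, 2 cells in each library held at least 10 G2/M UMIs, and the thinned S-phase shares were 1.75% of inhibitor cells and 1.69% of control cells. With no doublets removed the log2 ratio turned to -0.92 for S phase and -1.07 for G2/M with Hmgb2, and with the class set from each cell's own markers that for G2/M was -0.075.

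Hepatocyte-like cells were held by different clusters, 137 of 140 inhibitor cells by cluster 26 and 180 of 182 control cells by cluster 8. The S-phase sum was 254.4 CPM in inhibitor cells and 133.7 CPM in control cells (log2 ratio 0.93, 0.63 to 1.23), and 6 of 8 measured S-phase members were higher and 0 lower, where 29.2% of features were higher and 19.9% lower. Top2a had 21 UMIs in 6 inhibitor cells and 2 UMIs in 2 control cells, and Ccna2, cyclin A, 22 UMIs in 4 inhibitor cells and 3 UMIs in 2 control cells. Of the G2/M members, 7 of 14 measured were higher and 2 lower. An inhibitor cell alone held 54.8% of the G2/M UMIs without Hmgb2 and 39.4% of the S-phase UMIs came from 1 cell. By cells the order was the other way: after thinning, 2 of 120 inhibitor cells (1.67%, 0.203 to 5.89) and 7 of 121 control cells (5.79%, 2.36 to 11.6) kept G2/M UMIs, with 20 and 61 cells left out as too shallow. Those intervals overlap, and no direction is read from this class. In the 42 control cells with markers of tumour or bile duct epithelium, the S-phase sum was 113.4 CPM and the G2/M sum without Hmgb2 18.1 CPM, and no cell held 10 G2/M UMIs, while Stmn1 was at 356.5 CPM.

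Monocyte-like cells carried little of either phase. Nonclassical monocyte-like cells, which patrol vessels, had an S-phase sum of 76.3 CPM in 1305 inhibitor cells and 101.4 CPM in 292 control cells (log2 ratio -0.41, -0.64 to -0.17). By the share of transcripts of hepatocyte secreted proteins, free RNA was estimated at 55.1% of the UMIs in inhibitor cells and 11.3% in control cells. With it subtracted, the log2 ratio of the S-phase sum was -1.52, which is as uncertain as the subtracted values of macrophage-like cells. Of the members, 4 of 9 measured S-phase members were lower and 0 higher, and 1 of 6 measured G2/M members was lower and 1 higher, where 13.3% of features were lower and 9.8% higher. Hist1h1b was at 5.66 CPM in inhibitor cells and 11.6 CPM in control cells (-1.03, -1.78 to -0.24), and Hmgb2 at 302.6 and 421.4 CPM (-0.48, -0.59 to -0.36). The G2/M sum without Hmgb2 was 48.1 CPM in inhibitor cells and 45.7 CPM in control cells (0.07, -0.26 to 0.42). At least 3 UMIs of the class's markers were held by 58.3% of inhibitor cells and 70.9% of control cells. Cluster 15, with 1024 of the inhibitor cells and 193 of the control cells, was named by Ace, Treml4, Ear2 and Adgre4. Its leading genes included Tppp3, Plac8 and Serpinb2. With cycle genes kept in the clustering, a cluster of 882 inhibitor and 86 control cells with these leading genes was unnamed. The markers it raised, Ccr2 and F13a1, are of the classical monocyte list. Whether cluster 15 holds nonclassical monocytes is thus not settled. After thinning, 0.467% of inhibitor and 0.352% of control cells passed for S phase and 0.311% and 0.352% for G2/M, at or below the limits set by neutrophil-like cells. Those limits follow from the number of neutrophil-like cells, of which 0 passed. Lying below them therefore does not show that the monocyte-like shares are background. Among the 2610 classical monocyte-like inhibitor cells none held 10 G2/M UMIs, and 0.307% passed after thinning for each phase, again below that limit. Cenpa made up 58.5% of their G2/M UMIs without Hmgb2 and Pcna 34.8% of their S-phase UMIs. In neutrophil-like cells 1 of 12 S-phase and 2 of 22 G2/M members were measured, namely Pcna, Hmgb2 and Cenpa, and none was lower or higher past 1.5-fold, where 24.7% of features were lower and 5.59% higher. Their S-phase sum was nevertheless lower, at 14.0 CPM (13 UMIs) in inhibitor cells and 36.1 CPM (58 UMIs) in control cells. That log2 ratio, -1.37 (-2.36 to -0.48), was the lowest for S phase among the compared classes, in cells taken as background and from few UMIs. Hmgb2 was at 827.0 CPM in inhibitor and 798.9 CPM in control neutrophil-like cells, among which no cell passed the G2/M threshold.

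**Figure D5:**
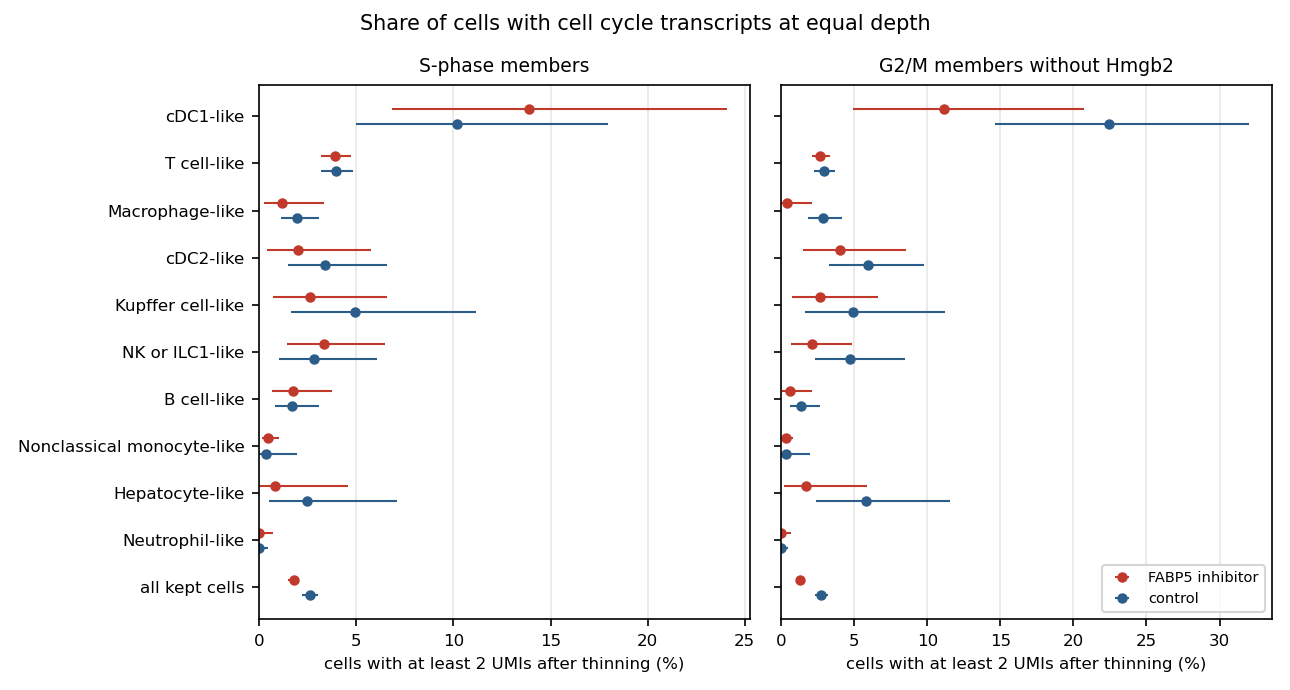
Percent of cells with at least 2 UMIs of S-phase members (left) and of G2/M members without Hmgb2 (right) after every cell was thinned to 1000 UMIs, for the FABP5 inhibitor library (red) and the control library (blue), with exact Clopper-Pearson 95% intervals. The intervals of the libraries overlap in each single class shown for both phases, and they separate over all kept cells for both phases, 1.31% against 2.74% for G2/M.

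Other genes of the cycle were counted in the same way. Over all kept cells, 21 of 33 other S-phase genes were lower and 0 higher, and 25 of 34 other G2/M genes were lower and 1 higher, where 28.9% of features were lower and 8.77% higher. Their median log2 ratios were -0.74 for S phase and -1.10 for G2/M. The 3 other S-phase genes with the most UMIs were close to level: Slbp, the histone mRNA binding protein, was at 66.0 CPM in the inhibitor library and 65.9 CPM in the control library, Rfc2, a clamp loader subunit, at 50.5 and 52.2 CPM, and Nasp, a histone chaperone, at 41.0 and 39.7 CPM. Of the 3 other G2/M genes with the most UMIs, Tubb4b, a tubulin, was at 86.0 CPM in the inhibitor library and 120.5 CPM in the control library, Jpt1 at 263.5 and 258.5 CPM, and Tmpo, a nuclear envelope protein gene, at 155.0 and 87.0 CPM. In T cell-like cells 6 of 33 S-phase and 8 of 34 G2/M genes of these lists were lower and 0 higher, where 10.7% of features were lower, so that the S-phase count is not far from the background. In macrophage-like cells 16 of 27 measured S-phase genes were lower and 1 higher, and 21 of 29 measured G2/M genes were lower and 2 higher, where 16.6% of features were lower and 10.6% higher. The median of these G2/M genes was -1.03, against -3.18 for the G2/M members. In Kupffer cell-like cells 13 of 15 measured S-phase genes were lower and 0 higher, against 4 lower and 2 higher of 17 measured G2/M genes, where 18.1% of features were lower and 13.2% higher. In B cell-like cells 3 of 19 measured S-phase genes were higher and 1 lower, and 1 of 14 measured G2/M genes was higher and 2 lower, where 6.08% of features were higher and 9.79% lower.

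The regulators of G1 gave counts near the background. Of 23 such genes, 8 were lower and 3 higher over all kept cells, where 28.9% of features were lower and 8.77% higher, and their median log2 ratio was -0.14, against -0.16 for all features. In T cell-like cells 3 were lower and 1 higher, where 10.7% of features were lower and 3.82% higher. Ccnd3, a D-type cyclin of leukocytes, was at 297.5 CPM in the inhibitor library and 168.0 CPM in the control library (log2 ratio 0.82), and in macrophage-like cells at 188.0 and 74.9 CPM. The antiproliferative genes Btg1 and Btg2 were close to level over all kept cells, at 992.8 and 641.3 CPM in the inhibitor library and 981.5 and 652.7 CPM in the control library.

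The genes most like each phase across cells were sought among the non-members, by Pearson's correlation of log-normalised levels with the summed members over the 15214 kept cells. Cells of a library share its depth and composition, so these values describe likeness only. For the S-phase sum the 4 highest were Pclaf (r = 0.65), Spc24 (0.51), Esco2 (0.50) and Pbk (0.48). For the G2/M sum without Hmgb2 they were Hmmr (0.81), Cdca3 (0.73), Pclaf (0.68), Spc24 (0.67) and Knl1 (0.67). Among the members themselves, Ccna2, Birc5 and Cenpf had the highest mean correlation with the other G2/M members, 0.60, 0.59 and 0.58, while Cenpa had 0.24 and Hmgb2 0.20.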

How the data were processed

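The authors deposited raw UMI counts for every feature and barcode, made with Cell Ranger 5.0.1 per the file headers and without normalization. The submitters' processing notes name build mm9 and, beside Cell Ranger, the software R 3.0 and Seurat 3. Barcodes with at least 300 genes, 500 UMIs and at most 25% mitochondrial UMIs were kept, and barcodes scored as doublets against simulated ones, 2 per cell, were removed at 0.8% per 1000 barcodes, which was 717 inhibitor and 374 control barcodes. Cells passing for G2/M were 2.24% of removed inhibitor and 5.57% of removed control barcodes, against 1.31% and 2.74% of kept cells. Cells were clustered with scanpy 1.11.5 on log-normalised counts from 2000 variable genes without 231 cycle-related genes, 30 principal components, 20 neighbours and Leiden resolution 1.0, giving 30 clusters. A class needed 3 markers at least 2-fold higher, and named clusters with 2 or more markers of another class among their top 10 genes were split at resolution 0.3, a step chosen after the data had been seen. UMIs were summed per library and class. Intervals are exact Poisson, conditional binomial and Clopper-Pearson at 95%. Scripts were tested on simulated data. Members, gene lists and markers were chosen with earlier results of these data known. Members were named by their UMI counts, and in each class by the ratio bounds farthest from 1. A sum by class does not tell apart more dividing cells and more transcripts per cell. A result on a further non-member gene is not reported here.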

Additional observations from a re-analysis of the deposited data

How the results depend on the processing

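With 1 library per group no replicate can be left out, and differences between conditions and between 2 preparations cannot be told apart. No paired analysis was possible because each group has 1 library and no result comes from a test. Class sums rest on few dividing cells, and depth limits genes under 20 UMIs. Under all alternatives run, the log2 ratio (inhibitor over control) stayed below 0 for both phases in all kept, T cell-like and cDC2-like cells, for G2/M in macrophage-like cells, and for S phase in Kupffer cell-like, nonclassical monocyte-like and neutrophil-like cells. Of 338 recomputed values 231 kept their direction and size, 96 moved and 11 reversed. The cause was not tested except where the alternative's construction states it.

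Values below are log2 ratios unless named otherwise. Counts of members lower or higher stand without the share of all features, which is given for the main setting only, so they are not read as results about the members. With cell cycle genes kept in the clustering, which by construction takes dividing cells out of their lineage, G2/M was 0.54 in B cell-like, -0.41 in cDC2-like, -0.56 in macrophage-like, -0.29 in nonclassical monocyte-like and -0.23 in T cell-like cells and reversed to 0.21 in Kupffer cell-like cells. S phase reversed to 0.15 in macrophage-like cells and was -0.069 in NK-like or ILC1-like and -0.026 in T cell-like cells, with 2 members higher and 8 lower in macrophage-like cells and 2 lower in T cell-like cells. With the class of each cell set from its own markers, G2/M reversed to -0.075 in B cell-like cells and was -1.09 in macrophage-like and -0.42 in T cell-like cells, S phase was -0.63 in cDC2-like, 0.51 in hepatocyte-like and -0.86 in nonclassical monocyte-like cells, 9 members were lower in T cell-like cells, and macrophage-like shares were 2.86% of inhibitor and 4.74% of control cells for G2/M and 3.43% of control cells for S phase. Restricted to cells with at least 3 UMIs of their class's own markers, chosen after seeing the data, G2/M was -1.89 in macrophage-like and -0.88 in cDC2-like cells, S phase was -0.66 in cDC2-like cells, and 8 members were lower in T cell-like cells.

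With no doublets removed, S phase reversed to -0.92 and G2/M to -1.07 in B cell-like cells. S phase was -0.45 in cDC2-like, 0.58 in hepatocyte-like, -0.60 in macrophage-like, -0.26 in NK-like or ILC1-like and -0.47 in neutrophil-like cells. G2/M was -0.15 in cDC2-like, 1.02 in hepatocyte-like, -1.27 in Kupffer cell-like, -1.27 in macrophage-like and -0.20 in neutrophil-like cells, with 1 member higher in macrophage-like and 9 lower in T cell-like cells. With the removed doublets doubled, G2/M reversed to -0.17 in hepatocyte-like cells and was -0.74 over all kept cells, 0.49 in B cell-like, -1.38 in cDC2-like, -1.29 in Kupffer cell-like, -0.75 in macrophage-like and -0.69 in T cell-like cells. S phase was then -0.81 over all kept cells, 0.045 in B cell-like and -0.13 in NK-like or ILC1-like cells, and 24 members were lower in T cell-like cells. Without the mitochondrial limit, NK-like or ILC1-like cells reversed to 0.095 for S phase and 0.54 for G2/M. All kept cells gave -0.52 and -0.45, cDC2-like -0.63 and -0.32, hepatocyte-like 3.11 and 2.07, and Kupffer cell-like -0.75 and -0.60 for S phase and G2/M, T cell-like -0.077 for S phase, B cell-like 0.41 and macrophage-like -0.90 for G2/M. Control shares over all kept cells were then 2.17% for S phase and 2.34% for G2/M.

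At resolution 0.5 G2/M was -0.54 in cDC2-like and -0.81 in Kupffer cell-like cells, and 9 members were lower in T cell-like cells. At resolution 2 hepatocyte-like cells reversed to -0.18 for S phase and -0.42 for G2/M, G2/M was -1.11 in cDC2-like and -0.50 in NK-like or ILC1-like cells, and 8 members were lower in T cell-like cells. Without mitochondrial, hepatocyte and member UMIs in the total, G2/M over all kept cells was -0.74. With free RNA subtracted, by the uncertain estimate described above, macrophage-like cells gave -1.30 for S phase and -2.42 for G2/M. Nonclassical monocyte-like cells then gave -1.52 and -0.86. Without Hmgb2, G2/M was -1.29 over all kept cells, -0.83 in cDC2-like, -0.15 in Kupffer cell-like, -2.74 in macrophage-like, 0.26 in neutrophil-like and -0.44 in T cell-like cells and reversed to 0.073 in nonclassical monocyte-like cells. Past 2-fold, 0 members were lower in T cell-like cells. Requiring 3 UMIs, the S-phase and G2/M shares were 0.569% and 0.719% of all inhibitor cells and 0.961% and 1.89% of all control cells, 1.41% and 1.64% of inhibitor and 1.48% and 2.02% of control T cell-like cells, and 0% for both phases in inhibitor macrophage-like cells, with 0.798% of control ones for S phase. Thinned to 2000 UMIs, they were 4.54% and 2.66% of all inhibitor cells and 7.56% and 4.66% of all control cells, 9.55% and 5.22% of inhibitor and 10.4% and 5.31% of control T cell-like cells, and 4.54% of control macrophage-like cells for S phase.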
